A study of Mus musculus with 9 samples.

Results

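Lysosomes are acidic compartments in which cathepsins and other hydrolases break down proteins, glycans and lipids delivered by endocytosis and autophagy. Cholesteryl esters that arrive with lipoproteins are cleaved there by acid lipase, and the free cholesterol leaves with the help of NPC2 and NPC1. In the ovary this route supplies cholesterol to cells that make steroids, and macrophages, which clear follicle and luteal remnants, are rich in lysosomal enzymes. The genes described are 37 that encode lysosomal enzymes, membrane proteins, activators, cholesterol exit proteins and the regulators Grn and Tfeb. They were chosen by symbol from the 54838 genes of the expression table, and all 37 had values high enough to be tested.

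Total RNA of whole ovaries from adult mice was sequenced 40 h after induction with pregnant mare serum gonadotropin (PMSG), a hormone that drives follicle growth and was given in all groups. The 3 libraries called DKO_TG come from mice without either liver X receptor (double knockout, DKO LXR) that carry the transgene labelled TG-AMH-LXRb. The 3 libraries called DKO come from that double knockout without the transgene, and the 3 libraries called WT from wild type mice. The labels name Amh in the transgene, a gene that granulosa cells of growing follicles express, and leave out the transgene's sequence, the strain, any pooling, and whether libraries of a group came from separate animals. The p-values therefore reflect only how much these samples vary, and that variation may be technical. Liver X receptors bind oxysterols and switch on genes of cholesterol efflux.

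Values are in RPKM, reads per kilobase of exon, scaled by library size by the authors. Library depth, recovered from the steps between values, was 40.1 to 47.6 M reads in DKO_TG, 46.1 to 59.4 M in DKO and 48.6 to 57.7 M in WT. Nr1h3, which encodes LXRa, was at 0.538 to 0.824 RPKM in DKO_TG, 0.590 to 1.11 RPKM in DKO and 4.12 to 5.47 RPKM in WT. Nr1h2, which encodes LXRb, was at 5.14 to 5.96 RPKM in DKO_TG, 5.79 to 7.79 RPKM in DKO and 15.2 to 22.5 RPKM in WT. It was not higher in DKO_TG than in DKO (log2 change -0.18, 95% interval -0.54 to 0.17), so this gene did not bear out the label of the transgene. Without the transgene's sequence, whether its reads would count for Nr1h2 is unknown. The 3 WT libraries differed from the remaining 6 in Malat1, a transcript retained in the nucleus. It was at 246 to 279 RPKM in DKO_TG, 177 to 213 RPKM in DKO and 1.67 to 11.1 RPKM in WT. The library size behind the RPKM values was 1.03 to 1.06 times the recovered reads in DKO_TG, 1.04 to 1.11 times in DKO and 0.793 to 0.920 times in WT. Both features separate the groups as genotype does, so their part in any difference from WT cannot be told apart from genotype, and directions against WT are given below with their values under 4 other scalings. In whole tissue, fewer cells of a type and less RNA per cell cannot be told apart.

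The factor TFEB and its relatives are known to bind an E-box of the form GTCACGTG before the starts of many lysosomal genes. That motif was searched on both strands in RefSeq windows from 250 bases before to 50 after each gene's start (GRCm38.p6), which were found for 33 of the 37 genes. GTCACGTG was present in 7 of the 33 (21.2%), namely Ctsa, Ctsd, Glb1, Lamp1, Lgmn, Mcoln1 and Naglu, against 2.55% of 27025 genes. The core CACGTG, which every GTCACGTG contains, was present in 10 of the 33 (30.3%) against 8.09%. A match describes letters and not binding. The stretches before the first annotated base of 4 of these genes are shown because they hold the motif outside the transcribed sequence. The motif or its reverse complement is in capitals, and other copies of the core are in lower case.
Lamp1, chr8:13158911-13159160, plus strand: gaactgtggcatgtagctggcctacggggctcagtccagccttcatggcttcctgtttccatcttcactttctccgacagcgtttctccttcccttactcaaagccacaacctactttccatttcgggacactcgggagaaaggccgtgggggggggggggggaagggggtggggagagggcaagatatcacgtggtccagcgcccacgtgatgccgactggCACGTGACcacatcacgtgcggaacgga
Glb1, chr9:114400828-114401075, plus strand: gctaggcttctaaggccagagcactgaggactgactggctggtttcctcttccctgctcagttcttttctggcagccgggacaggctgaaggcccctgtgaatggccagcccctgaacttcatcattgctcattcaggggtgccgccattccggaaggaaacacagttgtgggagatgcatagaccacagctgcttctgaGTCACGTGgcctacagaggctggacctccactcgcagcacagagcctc
Mcoln1, chr8:3500269-3500456, plus strand: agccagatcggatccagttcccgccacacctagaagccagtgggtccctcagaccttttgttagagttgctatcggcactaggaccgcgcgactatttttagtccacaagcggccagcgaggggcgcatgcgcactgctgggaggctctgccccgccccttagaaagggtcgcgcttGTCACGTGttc
Ctsd, chr7:142388039-142388077, minus strand: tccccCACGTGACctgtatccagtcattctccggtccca

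Of the 7 genes with this motif, Lamp1, Lgmn and Naglu were lower in DKO than in WT as deposited, with Lamp1 and Naglu above WT under TPM scaling. In DKO_TG against WT, Ctsa, Ctsd, Glb1, Lamp1 and Naglu were lower as deposited, with Glb1, Lamp1 and Naglu above WT under TPM scaling. Mcoln1 was called in neither as deposited. Tfeb itself was near the lower limit of the tested range. It was at 0.987, 1.33 and 1.29 RPKM in DKO_TG, 1.66, 1.62 and 1.2 RPKM in DKO and 1.65, 1.33 and 1.03 RPKM in WT, and the 3 groups overlapped. Its log2 change was 0.13 in DKO against WT (95% interval -0.24 to 0.49, adjusted p = 0.518 in limma) and -0.10 in DKO_TG against WT (95% interval -0.46 to 0.26, adjusted p = 0.621 in limma). In 1 of 20 alternatives each, TPM scaling and quantile normalization, these passed the threshold.

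As deposited, most of the called lysosomal genes were lower in both knockout groups than in WT, a direction that 11 of 22 called genes in DKO_TG and 7 of 18 in DKO did not keep in every alternative scaling. In DKO against WT, 17 of the 37 were lower and 1, Ctsk, was higher, by limma on log2(RPKM + 0.5) with an adjusted p under 0.05. Of all 18889 genes tested, 25.9% were called lower and 30.8% higher, 56.7% in all, and of the 13215 protein-coding ones 22.5% lower, 31.7% higher and 54.2% in all. In DKO_TG against WT, 21 were lower and 1, Gpnmb, was higher, where 22.3% of all genes were lower, 29.1% higher and 51.4% called in all, and of protein-coding genes 19.8%, 29.9% and 49.7%. The median log2 change of the list was -0.34 in DKO against WT and -0.47 in DKO_TG against WT, and that of all tested genes 0.02 and 0.03. Both comparisons use the same WT libraries.

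These counts depended on how libraries were scaled. With TPM scaling, in which the RPKM values of a library are divided by their sum, 16 of the 37 were higher and 2 lower in DKO, and 53.1% of all genes were higher and 5.64% lower. With plain totals of reads 8 were higher and 7 lower, with limma-voom on the recovered reads 8 and 8, and with quantile normalization 6 and 6. In DKO_TG against WT the counts were 6 higher and 4 lower with TPM, 5 and 9 with plain totals, 5 and 9 with voom, and 2 and 10 with quantile normalization. TPM, plain totals and voom also moved the median of all genes in DKO against WT, to 0.49, 0.28 and 0.33. Against that moving median the list's median was 0.34, 0.35 and 0.41 lower, close to the 0.36 of the deposited scaling, whereas with quantile normalization it was 0.04 above. Of the 18 genes called in DKO against WT, 11 kept their direction in all 20 alternatives, and of the 22 called in DKO_TG against WT, 11 did. Calls held in each of the 4 rescalings for Ctsz, Cd63, Grn, Fuca1 and Gpnmb in DKO_TG against WT and for Ctsz, Cd63 and Ctsk in DKO against WT, and every other call was lost in at least 1 of them.

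**Figure D1:**
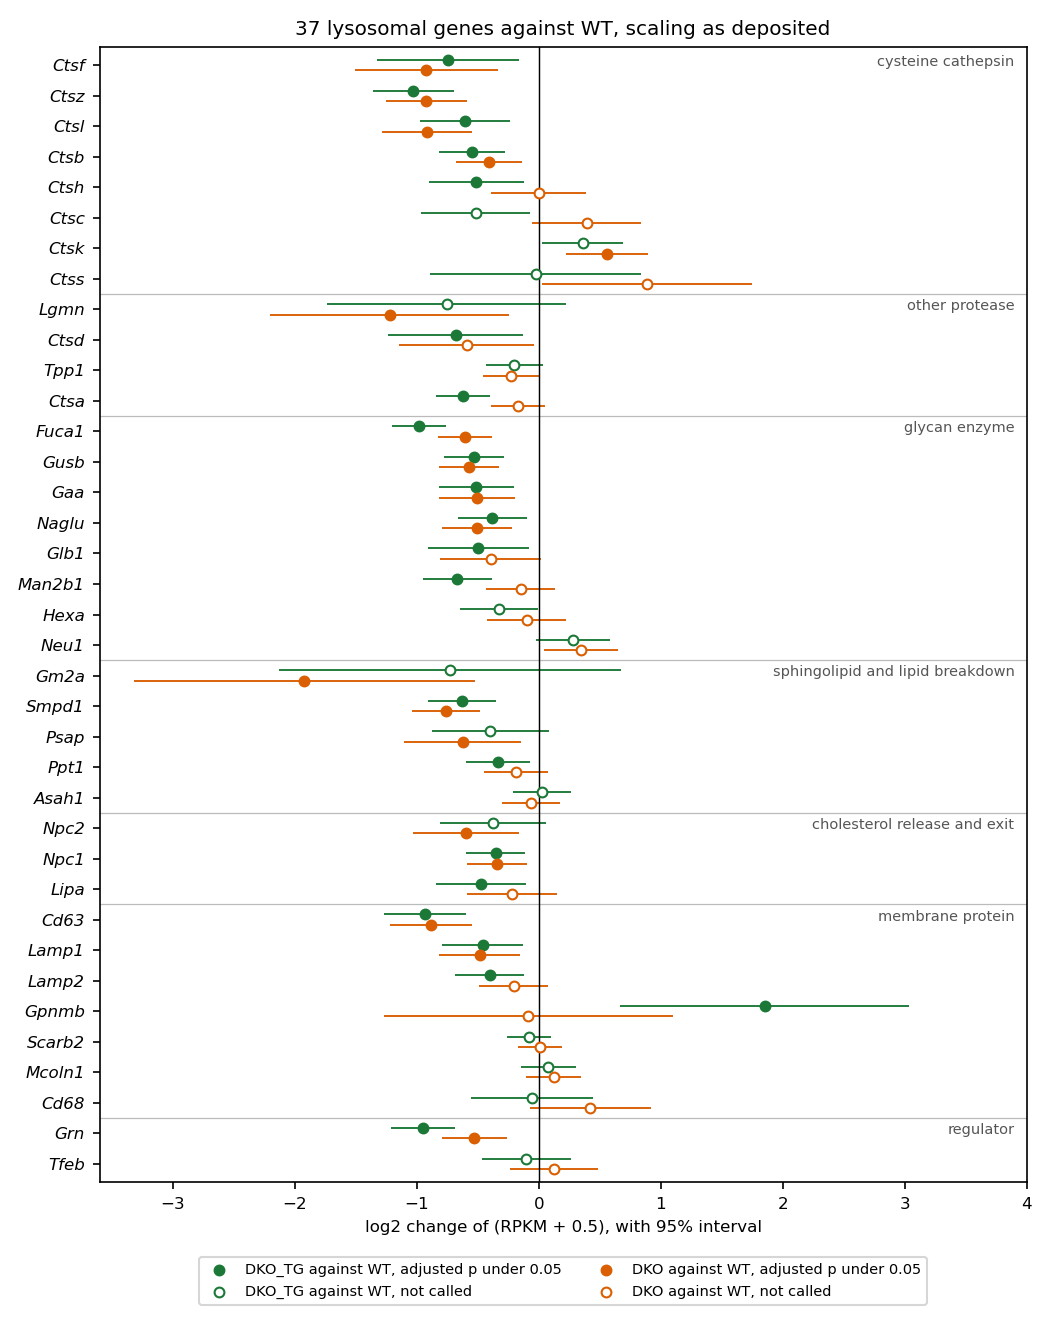
Log2 change of RPKM + 0.5 for the 37 lysosomal genes in DKO_TG against WT (green) and DKO against WT (orange), with 95% intervals, grouped by role; filled points passed an adjusted p of 0.05 in limma. Of the called genes, 11 of 22 in DKO_TG against WT and 11 of 18 in DKO against WT kept their direction under all 20 alternatives; the others turned under TPM scaling or quantile normalization.

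**Figure D2:**
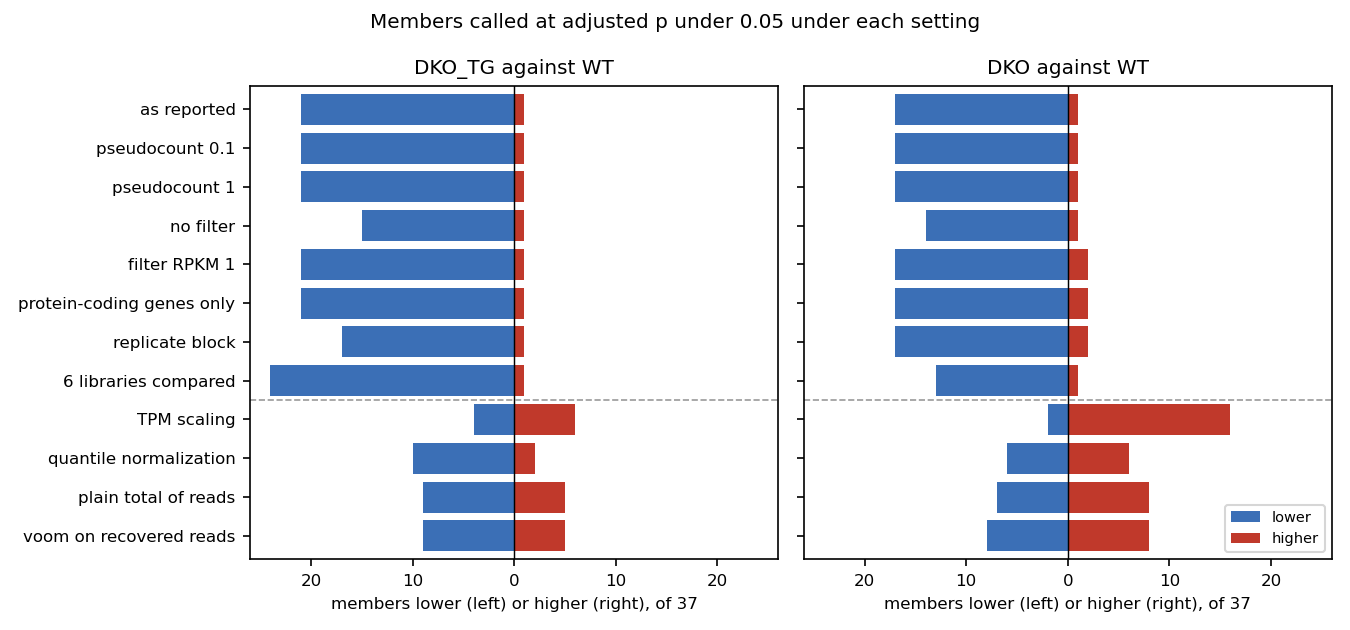
Number of the 37 genes called lower (blue, left) and higher (red, right) in DKO_TG against WT (left panel) and DKO against WT (right panel) as reported and under 11 alternatives. Below the dashed line the 4 rescalings give 4 to 10 lower and 2 to 6 higher genes in DKO_TG against WT, and 2 to 8 lower and 6 to 16 higher in DKO against WT.

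Among the 8 cysteine cathepsins, proteases of the lysosome, Ctsb, Ctsf, Ctsl and Ctsz were lower in DKO than in WT and Ctsk was higher, with Ctsb above WT under TPM or quantile scaling. Ctsz, the carboxypeptidase cathepsin Z, was at 63.5, 70.9 and 62.3 RPKM in DKO_TG, 67.0, 85.5 and 61.2 RPKM in DKO and 154, 125 and 125 RPKM in WT. Every WT library was above the 6 others. Log2 changes were -1.03 ± 0.15 in DKO_TG against WT and -0.92 ± 0.15 in DKO against WT (SE, adjusted p = 0.000562 and 0.00092 in limma). Both calls held in all 20 alternatives, with the smallest changes -0.50 in DKO_TG against WT and -0.33 in DKO against WT. Ctsk, a collagen-degrading cathepsin best known from osteoclasts, was at 10.2, 12.1 and 8.30 RPKM in DKO_TG, 10.3, 13.5 and 11.3 RPKM in DKO and 7.39, 7.45 and 8.45 RPKM in WT. All DKO libraries were above WT, while the lowest DKO_TG library lay within the WT range. The log2 change was 0.56 ± 0.15 in DKO against WT (SE, adjusted p = 0.0112 in limma), and this call held in all 20 alternatives (0.45 to 1.08). For DKO_TG against WT it was 0.36 (95% interval 0.03 to 0.70, adjusted p = 0.0676 in limma).

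Ctsf, cathepsin F, was at 50.2, 52.8 and 47.5 RPKM in DKO_TG, 53.5, 44.1 and 36.7 RPKM in DKO and 133, 63.7 and 70.75 RPKM in WT. WT replicate 1 was far above the other WT libraries, which were still above all of the knockout groups. The log2 change was -0.92 in DKO against WT (95% interval -1.51 to -0.34, adjusted p = 0.0145 in limma) and was not called with TPM or quantile scaling (highest adjusted p = 0.179). Its exon length in the annotation did not give whole reads, so the level per length is uncertain, while ratios between libraries are not affected. Ctsl, cathepsin L, had log2 changes of -0.61 in DKO_TG against WT and -0.91 in DKO against WT (adjusted p = 0.0133 and 0.00168 in limma), but turned to 0.02 in DKO_TG against WT with quantile normalization. Ctsb, cathepsin B, was -0.55 and -0.41 (adjusted p = 0.00516 and 0.0178 in limma) in these comparisons, and with quantile normalization 0.04 and 0.23. The values of both are uncertain, because annotated neighbours share 32.9% of the exon bases of Ctsl and 12.8% of those of Ctsb, and the same holds for Ctsd (34.4%), Ctsa (17.4%) and Hexa (12.8%). In DKO against WT Ctsb was no longer called without DKO replicate 3. In DKO_TG against WT, Ctsl was no longer called without DKO_TG replicate 1. For Ctsf in DKO_TG (-0.74, adjusted p = 0.038 in limma) leaving out WT replicate 1, DKO replicate 2 or any DKO_TG library ended the call (adjusted p up to 0.409 over all alternatives).

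Ctss, Ctsc and Ctsh, cathepsins abundant in immune cells, varied between the DKO libraries. Ctss was at 28.5, 39.8 and 40.8 RPKM in DKO_TG, 39.1, 118 and 68.1 RPKM in DKO and 41.2, 25.1 and 47.0 RPKM in WT. DKO replicate 2 was the highest and the groups overlapped. Its log2 change in DKO against WT was 0.89 (95% interval 0.02 to 1.75, adjusted p = 0.0732 in limma), and it was called higher in each of the 4 rescalings and without DKO replicate 1. Ctsc was at 12.0, 12.2 and 10.8 RPKM in DKO_TG, 15.6, 28.2 and 25.3 RPKM in DKO and 18.5, 15.1 and 17.1 RPKM in WT. The DKO_TG libraries lay below both other groups as deposited. Ctsc was not called in DKO_TG against WT (log2 change -0.52, adjusted p = 0.0542 in limma), with -0.0029 as the smallest change over all alternatives. In DKO against WT it was 0.40 (adjusted p = 0.114 in limma), called higher in each of the 4 rescalings and without DKO replicate 1. Ctsh was called lower in DKO_TG against WT (-0.51, adjusted p = 0.0345 in limma), a call kept in 10 of 20 alternatives.

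**Figure D3:**
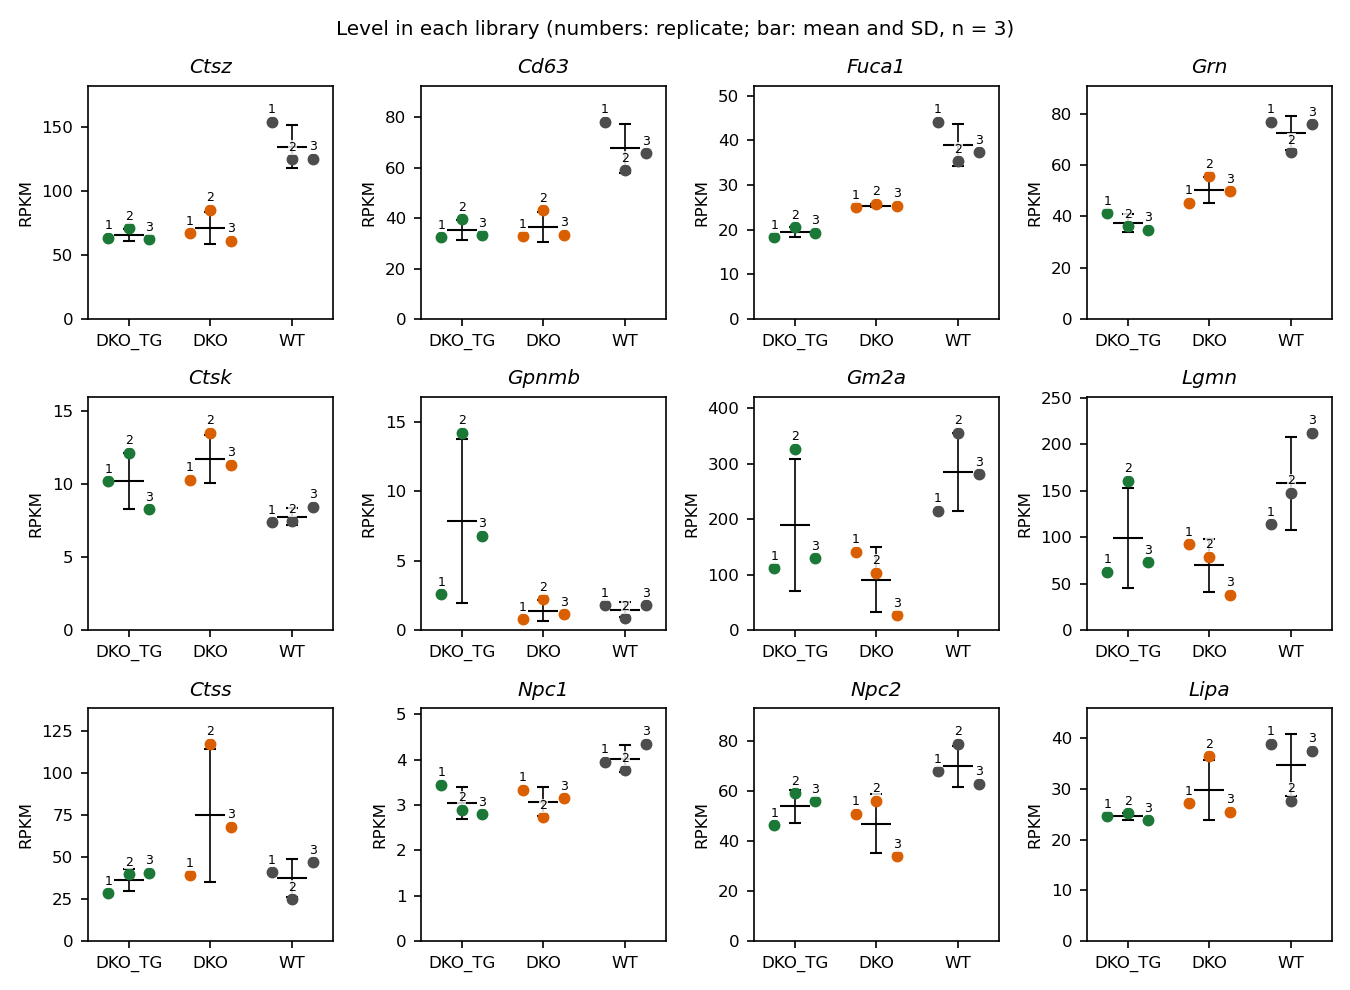
RPKM of 12 of the genes in each library of DKO_TG, DKO and WT, with the replicate number beside each point and the mean and SD (n = 3) as bars. For Ctsz, Cd63, Fuca1 and Grn all WT libraries are above the others, for Ctsk all DKO libraries are above WT, and for Gm2a, Lgmn, Ctss and Gpnmb single libraries spread widely.

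The other proteases moved less evenly. Lgmn encodes legumain, an asparaginyl endopeptidase that activates cathepsins. It was at 62.6, 161 and 73.3 RPKM in DKO_TG, 92.4, 78.8 and 38.0 RPKM in DKO and 114, 148 and 212 RPKM in WT. All DKO libraries were below WT, but DKO_TG replicate 2 lay inside the WT range. The log2 change was -1.22 in DKO against WT (95% interval -2.20 to -0.24, adjusted p = 0.0375 in limma). That call was lost without WT replicate 2, WT replicate 3 or DKO replicate 3, without a filter and in the 4 rescalings (highest adjusted p = 0.313, smallest change -0.61). Ctsd, the aspartic protease cathepsin D, was at 107, 133 and 125 RPKM in DKO_TG, 125, 182 and 95.3 RPKM in DKO and 250.5, 181 and 164 RPKM in WT. DKO replicate 2 overlapped WT, and the DKO_TG libraries did not. Its change was -0.68 in DKO_TG against WT (adjusted p = 0.0438 in limma) and -0.59 in DKO against WT (adjusted p = 0.0657 in limma). The call in DKO_TG was lost in 12 of 20 alternatives, among them those without WT replicate 1 or 2, DKO replicate 1 or any DKO_TG library (adjusted p up to 0.69).

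Of 8 enzymes that cut glycans, Fuca1, Gusb, Gaa and Naglu were lower in DKO than in WT, and these with Glb1 and Man2b1 were lower in DKO_TG than in WT. Gaa and Naglu turned above WT with TPM scaling in both comparisons, and Glb1 in DKO_TG. Fuca1, the alpha-fucosidase, was at 18.3, 20.6 and 19.4 RPKM in DKO_TG, 24.97, 25.8 and 25.4 RPKM in DKO and 44.2, 35.4 and 37.4 RPKM in WT. The 3 groups did not overlap, with DKO_TG lowest and WT highest. On the log2 scale it was changed by -0.98 in DKO_TG against WT (adjusted p = 8.34e-05 in limma), which held in all 20 alternatives, and -0.60 in DKO against WT (adjusted p = 0.00109 in limma), which was lost with TPM scaling only (-0.06). Gusb, the beta-glucuronidase, had log2 changes of -0.53 and -0.57 in DKO_TG and DKO against WT, lost with TPM scaling (-0.01 and -0.03). Neu1, a sialidase, was not called (0.35 in DKO against WT, adjusted p = 0.0503 in limma), and was called higher in 8 of 20 alternatives. Glb1, called in DKO_TG against WT, was no longer so when WT replicate 2 or 3, DKO replicate 1 or any DKO_TG library was left out (highest adjusted p over all alternatives 0.928), and Naglu without WT replicate 1 or 3 or any DKO_TG library (0.979).

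Sphingolipids are degraded with the help of activator proteins. Gm2a, the GM2 activator, had the largest change of the genes called in DKO against WT and the widest spread between DKO libraries. It was at 111.5, 327 and 129.8 RPKM in DKO_TG, 141, 104 and 26.5 RPKM in DKO and 215, 356 and 281.5 RPKM in WT. DKO replicate 3 was the lowest, and DKO_TG replicate 2 lay within WT. The log2 change was -1.92 in DKO against WT (95% interval -3.32 to -0.52, adjusted p = 0.0259 in limma), and it was not called without DKO replicate 3, WT replicate 2 or WT replicate 3, without a filter, or with TPM, plain totals or quantile normalization (adjusted p up to 0.152 over all alternatives). For DKO_TG against WT it was -0.73 (95% interval -2.13 to 0.67, adjusted p = 0.35 in limma). Psap, the saposin precursor, was the most abundant of the 37 per length, at 26.1% ± 0.195 of the list's summed RPKM in DKO_TG, 23.7% ± 2.41 in DKO and 23.9% ± 2.18 in WT (SD, n = 3). Its log2 change was -0.62 in DKO against WT (adjusted p = 0.0324 in limma), but 0.06 with quantile normalization, and it was no longer called when WT replicate 2 or 3, DKO replicate 3 or DKO_TG replicate 3 was left out. Smpd1, acid sphingomyelinase, was lower in DKO_TG and DKO than in WT, with log2 changes of -0.63 and -0.76 (adjusted p = 0.00279 and 0.00098 in limma), not called with TPM scaling. Asah1, acid ceramidase, was not called, at -0.06 in DKO against WT (adjusted p = 0.625 in limma), and turned to 0.48 with TPM scaling (adjusted p = 0.00528).

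The 3 genes of cholesterol release and exit changed modestly. Lipa encodes the acid lipase that cleaves cholesteryl esters. It was at 24.6, 25.2 and 23.9 RPKM in DKO_TG, 27.2, 36.5 and 25.5 RPKM in DKO and 38.9, 27.6 and 37.5 RPKM in WT. The DKO_TG libraries were the lowest of all, and DKO and WT overlapped. For Lipa the log2 change was -0.47 in DKO_TG against WT (95% interval -0.85 to -0.10, adjusted p = 0.037 in limma) and -0.22 in DKO against WT (adjusted p = 0.269 in limma), and both turned above 0 with TPM scaling (0.05 and 0.32). As for Ctsf, its level per length is uncertain. The call in DKO_TG was lost without WT replicate 1 or 3 or any DKO_TG library (adjusted p up to 0.77 over all alternatives).

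Npc2, the soluble cholesterol carrier of the lysosome, was at 46.4, 59.3 and 55.9 RPKM in DKO_TG, 50.9, 56.2 and 33.9 RPKM in DKO and 67.9, 79.0 and 62.9 RPKM in WT. All 6 other libraries were below WT. The log2 change was -0.59 in DKO against WT (adjusted p = 0.0265 in limma) and -0.37 in DKO_TG against WT (95% interval -0.81 to 0.06, adjusted p = 0.132 in limma). The call was lost in 8 alternatives, among them those without WT replicate 1, WT replicate 2 or DKO replicate 3. Npc1, the membrane protein that takes cholesterol from NPC2, was at 3.45, 2.90 and 2.80 RPKM in DKO_TG, 3.34, 2.73 and 3.15 RPKM in DKO and 3.95, 3.77 and 4.36 RPKM in WT. WT was again the highest. Its log2 change was -0.35 in DKO_TG against WT and -0.34 in DKO against WT (adjusted p = 0.0227 and 0.0233 in limma), and with TPM scaling 0.11 and 0.14. It was not called without WT replicate 3 in either comparison, without DKO_TG replicate 2 or 3 in the first and without DKO replicate 2 in the second (adjusted p up to 0.688 over all alternatives).

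Of the membrane proteins, Lamp1 and Cd63 were lower in DKO than in WT, and Lamp1, Lamp2 and Cd63 were lower in DKO_TG, with Lamp1 and Lamp2 turning above WT under TPM scaling. Lamp1, a main glycoprotein of the limiting membrane, was at 143, 173 and 156 RPKM in DKO_TG, 157, 183 and 128 RPKM in DKO and 229, 213 and 206 RPKM in WT. Both knockout groups lay below WT. Its log2 change was -0.46 in DKO_TG against WT and -0.48 in DKO against WT (adjusted p = 0.028 and 0.0203 in limma), and 0.07 in both with TPM scaling. In DKO_TG its call was lost without any 1 WT library or DKO_TG replicate 1 or 3, and in DKO without WT replicate 1 or DKO replicate 3 (adjusted p up to 0.668 over all alternatives). Cd63, a tetraspanin of late endosomes, was -0.93 in DKO_TG against WT and -0.88 in DKO against WT (adjusted p = 0.00106 and 0.00131 in limma), called in all 20 alternatives. Reads may be shared with its pseudogene Cd63-ps, which was at 66.2 to 76.6 RPKM in DKO_TG, 65.7 to 84.5 RPKM in DKO and 124 to 163 RPKM in WT, so the value of Cd63 is uncertain. Scarb2, which carries glucocerebrosidase, and Mcoln1, a calcium channel, were not called against WT as deposited. With TPM, plain totals and voom Mcoln1 was called higher in DKO_TG and in DKO, and Scarb2 in DKO, and with TPM alone also in DKO_TG (0.44, adjusted p = 0.0303 in limma). Grn, the precursor of progranulin, a secreted protein that supports lysosomal function, was at 41.2, 36.2 and 34.8 RPKM in DKO_TG, 45.4, 55.6 and 49.9 RPKM in DKO and 76.9, 64.9 and 75.9 RPKM in WT. The 3 groups did not overlap. Its log2 change was -0.95 in DKO_TG against WT, in all 20 alternatives (adjusted p = 0.000251 in limma), and -0.53 in DKO against WT (adjusted p = 0.00486 in limma), which turned to 0.02 with TPM scaling.

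Gpnmb, a glycoprotein of lysosomes and of lipid-laden macrophages, was the 1 gene higher in DKO_TG than in WT. It was at 2.59, 14.2 and 6.80 RPKM in DKO_TG, 0.801, 2.22 and 1.17 RPKM in DKO and 1.78, 0.851 and 1.80 RPKM in WT. All DKO_TG libraries were above the others, but by unequal amounts. The log2 change reached 1.85 in DKO_TG against WT (95% interval 0.67 to 3.04, adjusted p = 0.0165 in limma), held in the 4 rescalings and lost only without WT replicate 2 (adjusted p = 0.0562). Among 13214 protein-coding genes, those with log2 RPKM most like Gpnmb over the 9 libraries were Mmp12, Fam91a1 and Spryd7 (Pearson r = 0.955, 0.937 and 0.932), which share all their libraries. Mmp12, a macrophage elastase, was at 0.388, 5.10 and 1.62 RPKM in DKO_TG, 0.205, 0.497 and 0.184 RPKM in DKO and 0.646, 0.293 and 0.375 RPKM in WT. As with Gpnmb, DKO_TG replicate 2 was far above the rest, but DKO_TG replicate 1 lay within the WT range. Mmp12 was called neither in DKO_TG against WT nor in DKO_TG against DKO (adjusted p = 0.0874 and 0.231 in limma). In DKO_TG against WT, Fam91a1 was called higher and Spryd7 was not (log2 changes 0.30 and 0.22, adjusted p = 0.0176 and 0.0612 in limma). All 3 genes were picked by likeness in these same libraries.

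**Figure D4:**
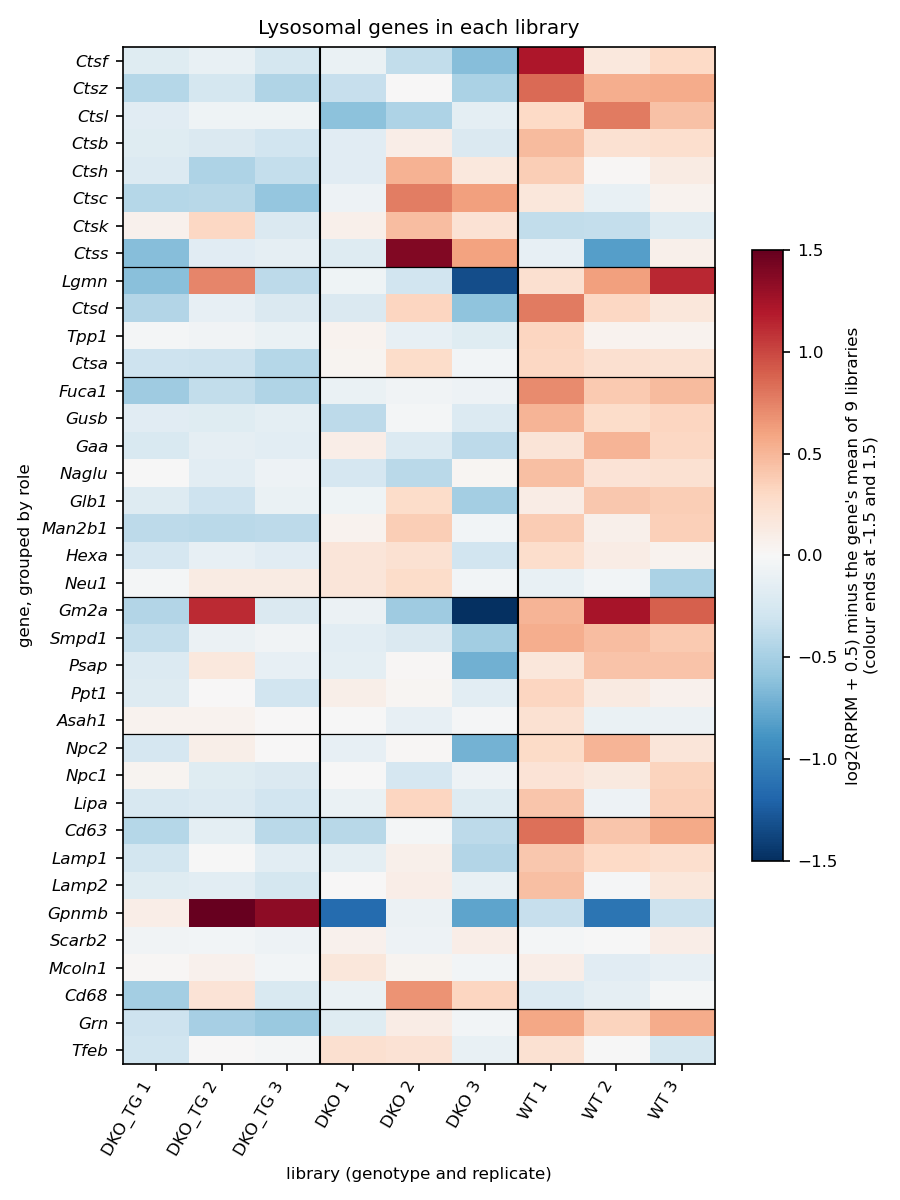
Log2(RPKM + 0.5) of each of the 37 genes in each library, minus the gene's mean over 9 libraries, with genes grouped by role and colour ending at -1.5 and 1.5. WT columns are mostly red and DKO_TG columns mostly blue as deposited, a pattern that flips for many genes with TPM scaling, and DKO replicate 2 is red for Ctss, Ctsc, Ctsh and Cd68.

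In DKO_TG against DKO, which differ by the labelled transgene, none of the 37 genes was called, while 2.23% of all genes were (0.498% higher and 1.73% lower) and 2.35% of protein-coding genes (0.401% higher and 1.95% lower). In limma 1 was higher and 7 lower at an unadjusted p under 0.05 (21.6% of the 37, where 15.8% of all tested genes passed). Those lower were Ctsa, Ctsc, Ctsh, Ctss, Grn, Man2b1 and Fuca1, and the 1 higher was Gpnmb. The median log2 change was -0.09, against 0.03 for all tested genes. With voom, plain totals or quantile normalization Ctsa, Ctsc, Grn, Man2b1 and Fuca1 were called lower. In the deposited scaling their changes were -0.45 for Ctsa, -0.91 for Ctsc, -0.42 for Grn, -0.52 for Man2b1 and -0.38 for Fuca1 (adjusted p = 0.0558, 0.0539, 0.116, 0.0743 and 0.0953 in limma). For Gpnmb it was 1.94 (95% interval 0.75 to 3.12, adjusted p = 0.107 in limma). Lipa, Npc1, Npc2 and Tfeb had log2 changes of -0.25, -0.01, 0.22 and -0.23, none called, with 95% intervals reaching from -0.62 to 0.12 for Lipa, -0.25 to 0.23 for Npc1 and -0.22 to 0.65 for Npc2.

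Markers of several cell types differed between groups beside these genes. The summed level of 19 macrophage markers was 196 to 245 RPKM in DKO_TG, 308 to 589 RPKM in DKO and 218 to 279 RPKM in WT. Of the 17 tested macrophage markers, 10 (58.8%) were lower in DKO_TG than in DKO in limma. In DKO against WT 12 (70.6%) were higher, and in DKO_TG against WT 7 (41.2%) were lower and 1 was higher. Of all tested genes, 1.73% were lower, 30.8% higher and 22.3% lower in these 3 comparisons. The macrophage marker share of all RPKM was 0.0407 to 0.0501% in DKO_TG, 0.0717 to 0.108% in DKO and 0.0275 to 0.0421% in WT. The mean share was higher in DKO_TG than in WT (0.0466% and 0.0344%), whereas 7 markers were called lower as deposited. Of the 19 macrophage markers, Marco and Cd163 were too low to test. The summed level of 8 luteal and steroidogenic markers was 7035 to 8506 RPKM in DKO_TG, 5499 to 7536 RPKM in DKO and 8238 to 10861 RPKM in WT. Their share of all RPKM was 1.46 to 1.70%, 1.12 to 1.75% and 1.26 to 1.32% in the same order, with every DKO_TG library above WT. The summed level of 7 fibroblast and smooth muscle markers was 279 to 338 RPKM in DKO_TG, 362 to 512 RPKM in DKO and 512 to 591 RPKM in WT. Their share of all RPKM was 0.0558 to 0.0701%, 0.0802 to 0.0940% and 0.0623 to 0.0890% in the same order. In these shares both knockout groups overlapped WT. The 10 oocyte markers summed to 50.6 to 72.6 RPKM in DKO_TG, 32.7 to 79.9 RPKM in DKO and 16.8 to 36.2 RPKM in WT, and 8 markers of other leukocytes to 4.16 to 4.47 RPKM in DKO_TG, 9.24 to 85.7 RPKM in DKO and 2.20 to 3.00 RPKM in WT. Theca and interstitial markers (6) summed to 624 to 966 RPKM in DKO_TG, 69.4 to 216 RPKM in DKO and 172 to 963 RPKM in WT. For 5 erythrocyte markers the sums were 198 to 285 RPKM in DKO_TG, 562 to 2409 RPKM in DKO and 361 to 1657 RPKM in WT. Granulosa cell markers (10) overlapped, at 1730 to 2120 RPKM in DKO_TG, 1190 to 2394 RPKM in DKO and 1855 to 2572 RPKM in WT. As shares of all RPKM, the group means of oocyte, other leukocyte, theca and erythrocyte markers kept their order. Granulosa cell markers overlapped as shares too. The part of these cell types in the lysosomal differences was not tested.

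Shares of the list's summed RPKM do not depend on any scaling of a whole library. The 37 genes summed to 2179 ± 317 RPKM in DKO_TG, 2065 ± 343 RPKM in DKO and 3124 ± 35.4 RPKM in WT (SD, n = 3), which was 0.444% ± 0.0570, 0.427% ± 0.0669 and 0.444% ± 0.0584 of all RPKM in these groups. Per library the share of all RPKM overlapped between the groups. Within the list, 17 genes took a larger share and 2 (Ctsz and Gm2a) a smaller share in every DKO library than in any WT library. Ctsk took 0.574% ± 0.0862 of the list in DKO and 0.249% ± 0.0201 in WT, Neu1 0.432% ± 0.0232 and 0.221% ± 0.0353, and Mcoln1 0.215% ± 0.0311 and 0.127% ± 0.0159 (SD, n = 3). In DKO_TG against DKO, 8 genes took a smaller share (among them Ctsa, Ctsc, Lipa, Man2b1 and Fuca1) and 2 a larger one, Psap and Gpnmb. A share falls when another gene of the list rises, so these are descriptions. No such rate was computed over all genes for shares of the list. In RPKM as deposited, 2 of the 37 were higher and 17 lower without overlap in DKO against WT. Of all tested genes, 32.6% were higher and 28.6% lower without overlap there. In DKO_TG against DKO, 2 of the 37 were higher and 8 lower without overlap in RPKM, and 12.1% of all tested genes each way.

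Other lists of the pathway were counted in DKO against WT, where 30.8% of all tested genes were higher and 25.9% lower. Of 19 tested subunits of the V-ATPase, the proton pump that acidifies the lysosome, 13 (68.4%) were lower and 1 was higher as deposited, but 3 were lower and 4 higher with TPM scaling. Without WT replicate 2 there were 8 lower, and without DKO replicate 3 there were 7. Tcirg1, a subunit of its membrane domain, was at 15.1 ± 1.02 RPKM in DKO_TG, 22.5 ± 2.34 RPKM in DKO and 3.904 ± 1.1 RPKM in WT (SD, n = 3). It had a log2 change of 2.41 in DKO against WT (adjusted p = 8.51e-06 in limma), while Atp6v1e1 and Atp6v0d1 each had -0.89 (adjusted p = 0.000811 and 0.000816 in limma). All 3 kept their direction in the 4 rescalings. Of 25 further hydrolases 6 were higher (24%) and 8 lower (32%), shares near those of all genes. Those with the smallest adjusted p were Idua, Sgsh and Galns, with log2 changes of 0.88, -0.54 and -0.93, and Sgsh was not called with TPM, plain totals or voom. Of 19 further membrane proteins 4 were higher and 4 lower (21.1% each), among them the amino acid transporter Slc38a9 at 0.93. Of 14 genes listed under enzyme sorting to lysosomes, 2 were higher (14.3%, Gga3 at 1.34) and 4 lower (28.6%). Leaving out any 1 library left 1 or 2 lower, and TPM, plain totals or voom left 0 lower.

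Among 18 tested TFE factors and their mTORC1 controls 5 were higher and 5 lower (27.8% each) in DKO against WT. There were 2 lower without WT replicate 1 and 3 lower without DKO replicate 1 or DKO replicate 3. With TPM, plain totals or voom 0 were lower, and with quantile normalization 3. Zkscan3, described as a repressor of autophagy and lysosome genes, was at 16.5 ± 0.841 RPKM in DKO_TG, 16.6 ± 1.5 RPKM in DKO and 3.52 ± 0.540 RPKM in WT (SD, n = 3). It rose by 2.09 on the log2 scale in DKO against WT (adjusted p = 2.3e-06 in limma), and Flcn, a GTPase activator for the Rag complex, by 1.41 (adjusted p = 2.2e-05 in limma); both were called in all 20 alternatives. Of 24 autophagy genes 5 were higher (20.8%) and 6 lower (25%), with Atg16l1 at 1.04 and Vps18 at -0.62. Of 19 genes of late endosomal lipid handling and cholesterol exit, 5 were higher (26.3%) and 8 lower (42.1%). With TPM, plain totals or voom 3 of these were lower, and with quantile normalization 5. Gramd1a, a sterol transporter between plasma membrane and endoplasmic reticulum, had 1.97 (adjusted p = 2.33e-05 in limma), called in all 20 alternatives. Of 5 tested cathepsin inhibitors 2 were higher and 2 lower (1 to 3 lower when single libraries were left out), with Serpina3g at 1.21 (adjusted p = 0.00019 in limma). With TPM scaling the higher counts were larger in each of these lists but that of the inhibitors. Examples were 15 of 25 hydrolases and 16 of 24 autophagy genes, where 53.1% of all genes were higher. The lower counts with TPM were 1 for the hydrolases, 1 for autophagy and 0 for the membrane proteins and the inhibitors. Of all genes 5.64% were lower there.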

How the data were processed

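The authors deposited 1 table of RPKM values for 54838 genes and 9 libraries; per the submitters' processing notes, the build was mm10 and the tools were DESeq2 1.2.8, HTSeq 0.5.4p5, HISAT2 2.1.0 and cutadapt. How RPKM was derived, from which annotation and with what strand setting, is not given in the sources used here. Groups and replicate numbers came from the sample titles. The DKO_TG columns spell the transgene differently and were matched by group and number.

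Multiplying RPKM by the exon length of GENCODE M21 gave whole reads for 97.8% of values, within 0.01 read or a relative difference of 1e-06. Depth is the sum over all matched genes after rounding. Summed over the 54078 genes whole in every library it was 37.8 to 56.1 M reads, with the library size behind RPKM 0.847 to 1.18 times that sum.

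Groups were compared by limma 3.58.1 (mean-variance trend) on log2(RPKM + 0.5) in R 4.3.3, with all 9 libraries in 1 fit. Genes at 0.5 RPKM or more in at least 3 libraries were tested (18889), with Benjamini-Hochberg adjustment over all of them. Folds understate changes of low genes. The fit was also run on simulated data without scaling differences between groups, so that run cannot speak to the effect of scaling. Values in every library are given for the 3 largest called changes in each direction in DKO against WT and for Npc1, Npc2, Lipa, Tfeb, Lamp1, Ctsd and Gpnmb. They are also given for Ctsz, Ctss, Ctsc, Fuca1, Grn and Mmp12, chosen after their values were seen. Up to 3 called genes of each other list may be named. The 37 genes and all lists were chosen with earlier results of these data known. Alternatives were other pseudocounts, filters and scalings, voom on recovered reads, protein-coding genes only, a replicate block, 6 libraries and leaving out each library.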

Additional observations from a re-analysis of the deposited data

How the results depend on the processing

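As deposited, 17 genes were lower and 1 higher in DKO against WT, and 21 lower and 1 higher in DKO_TG against WT. In DKO against WT the lower count became 2 with TPM scaling, 6 with quantile normalization, 7 with plain totals and 8 with voom. The higher count became 16, 6, 8 and 8 in the same order, and 2 with an RPKM filter of 1 or protein-coding genes only. In DKO_TG against WT the lower count became 4, 10, 9 and 9, the higher count 6, 2, 5 and 5, and the total 10, 12, 14 and 14. In DKO_TG against DKO 2, 5, 5 and 5 genes were called, all lower, and 2 with protein-coding genes only, against 0 as deposited. Leaving out each library in turn gave 13 to 22 calls in DKO against WT (11 to 19 lower, 1 to 4 higher), 13 to 24 in DKO_TG against WT (11 to 23 lower, 0 to 2 higher) and 0 to 1 in DKO_TG against DKO. The fewest lower calls came without DKO replicate 3 in DKO against WT (11), and without DKO_TG replicate 3 (11), DKO_TG replicate 1 (12) or WT replicate 1 (13) in DKO_TG against WT. The cause of these shifts was not tested.

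Log2 changes of the 37 genes, called or not, that turned in DKO_TG against WT were with TPM scaling Ctsh 0.0062, Ctss 0.50, Lamp1 0.071, Lamp2 0.12, Cd68 0.45, Glb1 0.024, Gaa 0.011, Hexa 0.20, Naglu 0.15, Psap 0.13, Npc1 0.11, Npc2 0.15, Lipa 0.047, Scarb2 0.44, Tpp1 0.32, Ppt1 0.19 and Tfeb 0.28. With quantile normalization they were Ctsb 0.044, Ctsl 0.017, Ctss 0.31, Lamp1 0.16, Hexa 0.092, Psap 0.24, Npc2 0.064, Scarb2 0.024, Tpp1 0.091, Ppt1 0.043 and Mcoln1 -0.13. Plain totals turned Ctss 0.24, Cd68 0.20, Scarb2 0.18, Tpp1 0.062 and Tfeb 0.090, and voom Ctss 0.24, Cd68 0.20, Scarb2 0.19, Tpp1 0.063 and Tfeb 0.13. In DKO against WT, TPM scaling turned Ctsa 0.37, Ctsb 0.14, Lamp1 0.068, Lamp2 0.34, Glb1 0.15, Gaa 0.038, Hexa 0.45, Naglu 0.043, Asah1 0.48, Npc1 0.14, Lipa 0.32, Grn 0.023, Tpp1 0.32, Ppt1 0.36, Man2b1 0.39 and Gpnmb 0.30. Of the named genes listed under enzyme sorting, it turned Sumf1 0.089. Quantile normalization turned Ctsa 0.14, Ctsb 0.23, Ctsd 0.039, Lamp1 0.18, Lamp2 0.24, Hexa 0.40, Psap 0.056, Asah1 0.38, Lipa 0.15, Tpp1 0.12, Ppt1 0.26, Mcoln1 -0.074 and Tfeb -0.27. Plain totals turned Ctsa 0.14, Lamp2 0.11, Hexa 0.22, Asah1 0.25, Lipa 0.091, Tpp1 0.086, Ppt1 0.13, Man2b1 0.16 and Gpnmb 0.14, and voom the same genes at 0.15, 0.11, 0.22, 0.25, 0.093, 0.089, 0.13, 0.17 and 0.20. In DKO_TG against DKO, quantile normalization turned Lamp1 -0.014, Npc1 0.0036 and Tpp1 -0.028, plain totals Lamp1 -0.023, Gusb -0.0061 and Tpp1 -0.025, and voom Lamp1 -0.023, Gusb -0.0057 and Tpp1 -0.026.

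Leaving out single libraries turned no called gene. Of genes not called, the ranges that crossed 0 were in DKO_TG against WT Ctss -0.29 to 0.16, Cd68 -0.25 to 0.11, Asah1 -0.031 to 0.13 and Tfeb -0.23 to 0.020, and in DKO against WT Ctsh -0.18 to 0.17, Hexa -0.19 to 0.065, Asah1 -0.12 to 0.045, Scarb2 -0.026 to 0.061 and Gpnmb -0.38 to 0.15. In DKO_TG against DKO they were Ctsd -0.31 to 0.16, Ctsz -0.21 to 0.031, Lamp1 -0.11 to 0.15, Cd63 -0.14 to 0.078, Glb1 -0.31 to 0.089, Gaa -0.12 to 0.13, Gusb -0.049 to 0.13, Neu1 -0.15 to 0.0023, Npc1 -0.089 to 0.044, Tpp1 -0.027 to 0.094 and Mcoln1 -0.095 to 0.011.

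With the replicate number as a block, 17 genes were lower and 2 higher in DKO against WT, 17 lower and 1 higher in DKO_TG against WT, and 0 were called in DKO_TG against DKO. Deviations of same-numbered libraries correlated at -0.31 to 0.14, so the numbers were not taken to pair the libraries.

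With 3 libraries a group the design limits every value, and a miss of the threshold does not show equal levels. Genes with low RPKM, such as Tfeb, have fewer reads for their length, and the added 0.5 RPKM shrinks their log2 changes.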
